A study of Mus musculus with 4 samples.

Results

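The Hedgehog pathway genes Ptch1, Smo, Hhip, Boc, Cdon, Gas1, Gli1, Gli2 and Gli3 were followed in hippocampal neurosphere cultures that carry an FGF13A overexpression allele (FGF13Aoe) and in control cultures. They were taken by gene symbol, as the receptors, coreceptors and GLI transcription factors of the pathway, and are 9 of the 48178 genes listed. The FGF13Aoe group (2 libraries) had the genotype hGFAPCre+ with ROSA26FGF13A LSL/+, and the control group (2 libraries) had hGFAPCre+ with ROSA26FGF13A +/+. Cre driven by human GFAP sequences was thus present in both groups. Radial glia and astrocytes use this promoter, so cells that never used it would keep the allele closed. All cells came from the hippocampus of C57BL/6 mice at postnatal day 0. The medium held EGF and FGF-2, each at 20 ng/ml, with B27 supplement, and spheres were collected on day 7. Whether the replicates of a group are different pups is not stated in the labels. The p-values therefore rest on the spread of these 4 libraries alone, which may be technical.

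Hedgehog ligands are secreted proteins that bind the receptor PTCH1. Without ligand PTCH1 holds back SMO, the signal transducer, and GLI3 and part of GLI2 are cut into repressors at the primary cilium. With ligand SMO is released, GLI2 acts mainly as an activator, and GLI1, PTCH1 and HHIP are made as direct target genes. BOC, CDON and GAS1 are coreceptors that help the ligand bind PTCH1, and HHIP binds ligand at the surface and keeps it from signalling. In the hippocampus the pathway is known for maintaining neural stem cells of the dentate gyrus.

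The libraries held 9724413 to 14092685 gene-assigned reads. Fgf13 had normalized read counts of 5410 and 4447 in FGF13Aoe libraries, against 772 and 769 in control libraries (log2 change 2.67 ± 0.14, SE, n = 2 per group; limma adjusted p = 0.00111), in the direction of the labels. All 19 neural progenitor markers reached a normalized count of 10 in at least 1 library, and their summed level was 103860 and 109820 in FGF13Aoe and 109190 and 114100 in control. Although these sums were close, 11 of the 19 progenitor markers rose (57.9%) and 2 fell (10.5%), with a median log2 change of 0.52. Of all tested genes 16.2% rose and 19.1% fell. Marker lists of other cells also differed between the groups. The summed level of 15 astrocyte markers was 182110 and 203270 in FGF13Aoe and 75147 and 56910 in control. Of these, 10 of the 15 rose (66.7%) and 1 fell (6.67%). Gfap alone supplied 111400 and 135800 of the summed astrocyte level in FGF13Aoe and 30380 and 12880 in control. The summed level of 16 oligodendrocyte lineage markers was 65585 and 77158 in FGF13Aoe and 25825 and 32374 in control, and 11 rose (68.8%) and 0 fell. That of 17 neuron markers was 12616 and 15334 in FGF13Aoe and 46307 and 36913 in control, and 15 fell (88.2%). The 20 cell division genes summed to 8146 and 10903 in FGF13Aoe and 18544 and 24857 in control, and 16 fell. Each gene of these 4 lists reached a normalized count of 10 in at least 1 library. Their part in the results on Hedgehog genes was not tested, and in bulk RNA fewer cells of a type and less RNA per cell cannot be told apart.

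Of the 9 members 8 were abundant enough to be tested, that is, 2 or more libraries reached 10 normalized reads. Gli2, Boc, Ptch1 and Smo were higher in FGF13Aoe neurospheres and Cdon was lower. Hhip, Gas1 and Gli3 did not pass the threshold of 0.05, and Gli1 stayed near its detection limit in every library. Thus 4 of 8 tested members rose, against 16.2% of all 15204 tested genes, and 1 of 8 fell, against 19.1%, so that 5 of 8 changed, against 35.3%. Both FGF13Aoe libraries lay above both control libraries for 5 tested members, against 36.2% of all tested genes, and below them for 1, against 37.5%. The median log2 change of the 8 was 0.56, and that of all tested genes was -0.01. Gli2 passed under every alternative setting run, whereas Boc, Ptch1, Smo and Cdon each lost the call with either control library left out. Those fits keep 1 control library, and calls over all genes became fewer in them as well, so the loss is not particular to these members. With either FGF13Aoe library left out, calls over all genes did not drop in this way. The SD over genes of the log2 difference between replicates was 0.586 in FGF13Aoe and 0.4325 in control. What the loss of calls depends on was not tested. Without control replicates 1 and 2 in turn, the log2 change was 0.98 and 0.73 for Boc and 0.64 and 0.69 for Ptch1. It was 0.39 and 0.58 for Smo, and -0.42 and -0.86 for Cdon.

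**Figure D1:**
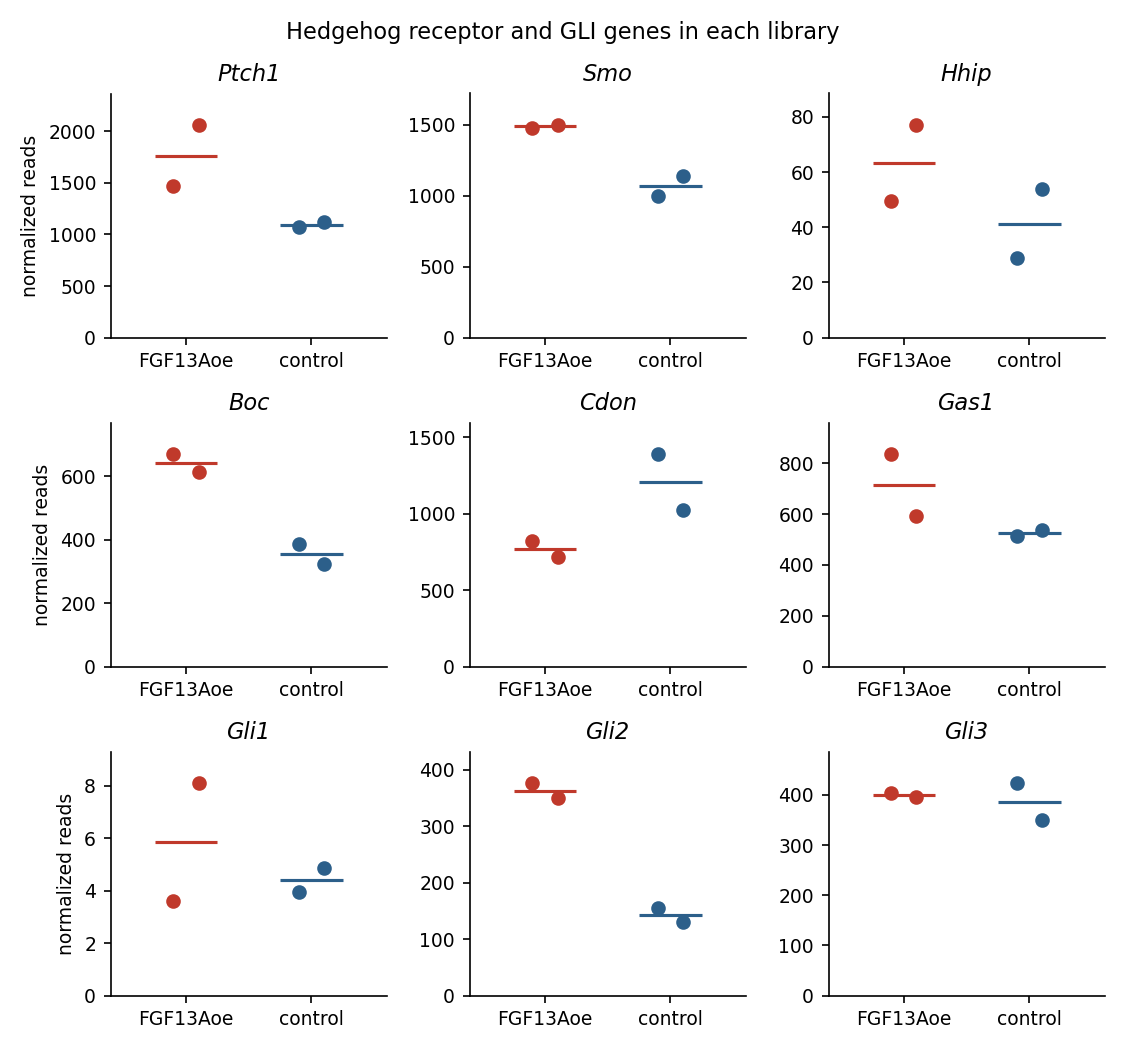
Normalized reads of the 9 genes (vertical axes, from 0, scaled per gene) in the 2 FGF13Aoe and the 2 control libraries; each point is 1 library and each line is the group mean. Gli2, Boc, Ptch1 and Smo lie higher in both FGF13Aoe libraries than in either control library, Cdon lies lower, and Gli1 has under 10 normalized reads throughout.

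Promoters of the 3 members that rose and have an entry in the RefSeq promoter table (GRCm38), 250 bases before to 50 after the annotated start, are shown because their genes moved in the same direction. They lie at chr1:119053570-119053869 (Gli2, minus strand), chr6:29735247-29735546 (Smo, plus strand) and chr13:63565686-63565985 (Ptch1, minus strand) and are written in the direction of transcription. Capitals mark CCACCC, the core of the GLI binding consensus GACCACCCA, on either strand.
Gli2: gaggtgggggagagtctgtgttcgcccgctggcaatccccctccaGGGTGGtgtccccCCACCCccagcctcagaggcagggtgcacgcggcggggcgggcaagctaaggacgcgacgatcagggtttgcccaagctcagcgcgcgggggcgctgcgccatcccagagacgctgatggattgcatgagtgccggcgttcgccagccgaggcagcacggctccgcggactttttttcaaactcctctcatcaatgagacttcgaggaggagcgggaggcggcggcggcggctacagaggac
Smo: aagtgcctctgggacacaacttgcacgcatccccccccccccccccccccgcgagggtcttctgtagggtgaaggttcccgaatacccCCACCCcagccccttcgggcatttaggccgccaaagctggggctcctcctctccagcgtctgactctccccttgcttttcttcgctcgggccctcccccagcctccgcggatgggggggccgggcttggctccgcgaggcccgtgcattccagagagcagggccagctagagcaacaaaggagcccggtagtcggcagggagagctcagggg
Ptch1: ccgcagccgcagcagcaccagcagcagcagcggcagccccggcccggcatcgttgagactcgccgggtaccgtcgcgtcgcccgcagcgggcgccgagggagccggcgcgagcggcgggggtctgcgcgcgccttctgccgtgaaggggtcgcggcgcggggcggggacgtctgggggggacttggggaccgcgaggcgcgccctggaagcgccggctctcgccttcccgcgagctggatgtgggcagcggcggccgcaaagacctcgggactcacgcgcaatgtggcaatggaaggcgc
Of the 7 members with a promoter entry, 0 held the full consensus GACCACCCA on either strand, which 0.253% of the 32851 promoters in the table held. The core CCACCC was found in 4 of 7, with 2 matches in Gli2 and 1 each in Smo, Hhip and Gli3, against 31.5% of all promoters. The windows of Ptch1, Cdon and Gli3 lie inside their genes and not at the outermost gene start. Ptch1, on the minus strand, reaches 63573598. Cdon, on the plus strand, begins at 35421128, and its window lies at 35451826 to 35452125. Gli3, also on the plus strand, begins at 15463235, and its window lies at 15463473 to 15463772. Their match counts are those of an internal start only. A match is a description of the letters and not a binding site. Boc and Gli1 are named only.

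Among the transcription factors, Gli2, the main activator of the family, changed most. Gli2 (ENSMUSG00000048402, GRCm38 chromosome 1, 118834132 to 119053619, minus strand) had normalized counts of 376 and 350.2 in FGF13Aoe libraries and 156 and 130.2 in control libraries. Both FGF13Aoe libraries lay far above both control libraries. Gli2 rose 2.54-fold (log2 change 1.34 ± 0.18, limma adjusted p = 0.00488). With 1 library left out in turn it ranged from 1.22 to 1.47.

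Gli3, the main repressor of the family (ENSMUSG00000021318, chromosome 13, 15463235 to 15730026, plus strand), had counts of 404 and 396 in FGF13Aoe and 423 and 349.8 in control. The FGF13Aoe values fell between the control values. The log2 change was 0.05 ± 0.15 (adjusted p = 0.801), and without control replicate 2 it was -0.08 (adjusted p = 0.839).

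Gli1, whose transcript is the usual readout of active signalling (ENSMUSG00000025407, chromosome 10, 127329882 to 127341974, minus strand), was covered by 3 and 8 reads in FGF13Aoe libraries and by 4 and 6 reads in control libraries. The groups overlapped, and the counts were at or little above the 3 reads that a count of 0 allows. The ratio of FGF13Aoe to control was 1.36, with an exact 95% interval of 0.523 to 3.56 that covers counting error only, so a difference within that range was not detectable at this depth. Of its exonic bases 6.55% overlap genes on the opposite strand, and whether the counting used strand is not given in the sources used here.

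Because levels of different genes can be compared only per length, counts were also divided by exon length in kilobases. On that scale Gli2 made up 56.1% and 54.3% of the summed level of the 3 GLI genes in FGF13Aoe libraries and 33.5% and 33.6% in control libraries. Gli3 made up 43.2% and 44.0% in FGF13Aoe and 65.3% and 64.7% in control. Gli2 was thus the most abundant GLI transcript in FGF13Aoe libraries and Gli3 in control libraries. The same order was found with the longest transcript as the length, where Gli2 averaged 54.7 and Gli3 48.9 normalized reads per kilobase in FGF13Aoe, and 21.5 and 47.3 in control. The Gli1 share was 0.744% and 1.73% in FGF13Aoe and 1.17% and 1.73% in control. The log2 ratio of Gli1 to Gli2 was -6.35 and -5.27 in FGF13Aoe and -4.98 and -4.48 in control, a difference of -1.08 with no overlap (two-sided exact permutation p = 0.333, the smallest possible here, and 0.666 adjusted over the 4 ratios computed). That of Gli1 to Gli3 was -6.45 and -5.45 in FGF13Aoe and -6.42 and -5.90 in control, a difference of 0.21 with overlap (exact permutation p = 1.0). Both ratios were taken on normalized count + 1 without division by length, and both rest on the 3 to 8 reads of Gli1 in a library. The summed GLI level was 97.5 and 93.9 reads per kilobase in FGF13Aoe and 67.5 and 56.4 in control.

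**Figure D2:**
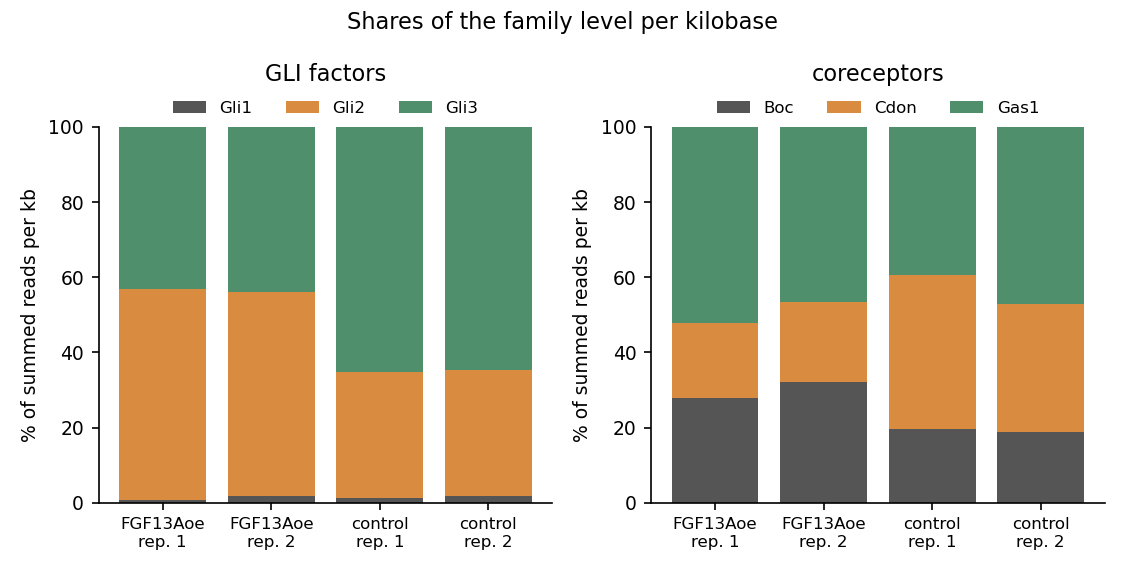
Share of each gene in the summed normalized reads per kilobase of its family (vertical axis, percent) in each library; the left panel shows the GLI factors and the right panel the coreceptors. Gli2 has 54.3% to 56.1% of the GLI level in FGF13Aoe and 33.5% to 33.6% in control, and Cdon has 19.8% to 21.5% of the coreceptor level in FGF13Aoe and 34.3% to 40.9% in control.

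The receptor Ptch1, which is also a target gene (ENSMUSG00000021466, chromosome 13, 63508328 to 63573598, minus strand), had counts of 1468 and 2055 in FGF13Aoe and 1073 and 1115 in control. Both FGF13Aoe libraries were above both control libraries, and replicate 2 stood well above replicate 1. The log2 change was 0.67 ± 0.18 (limma adjusted p = 0.0353), or 1.59-fold. Without control replicate 1 it was 0.64 (adjusted p = 0.177) and without control replicate 2 it was 0.69 (adjusted p = 0.146), so the call ended. It passed with either FGF13Aoe library left out, with a log2 change of 0.91 without replicate 1 and of 0.42 without replicate 2.

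Smo, the transducer that PTCH1 restrains (ENSMUSG00000001761, chromosome 6, 29735503 to 29761365, plus strand), had counts of 1479 and 1495 in FGF13Aoe and 996 and 1136 in control. The FGF13Aoe libraries were nearly equal and lay above both control libraries. The log2 change was 0.48 ± 0.12 (adjusted p = 0.0292), or 1.40-fold, and the call ended without control replicate 1 (0.39, adjusted p = 0.247) and without control replicate 2 (0.58, adjusted p = 0.116). Within a library the log2 ratio of Ptch1 to Smo, not divided by length, was -0.01 and 0.46 in FGF13Aoe and 0.11 and -0.03 in control. The difference of the means was 0.18 (two-sided exact permutation p = 0.667; the smallest p that 2 against 2 libraries allow is 0.333).

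Hhip, the ligand-binding inhibitor and target gene (ENSMUSG00000064325, chromosome 8, 79965851 to 80058006, minus strand), had counts of 49.5 and 76.9 in FGF13Aoe and 28.7 and 53.7 in control. The groups overlapped. The log2 change was 0.64 ± 0.42 (adjusted p = 0.271), and it ranged from 0.20 without control replicate 1 to 1.08 without control replicate 2. Of the 3 direct target genes among the members, Ptch1 therefore passed, Hhip did not, and Gli1 was too low to test.

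The coreceptors went in different directions. Boc (ENSMUSG00000022687, chromosome 16, 44485049 to 44558897, minus strand) had counts of 669 and 612 in FGF13Aoe and 386 and 323 in control, with no overlap. Its log2 change was 0.86 ± 0.15 (limma adjusted p = 0.0104), or 1.81-fold. The adjusted p was 0.054 without control replicate 1 (log2 change 0.98) and 0.0901 without control replicate 2 (0.73). Cdon (ENSMUSG00000038119, chromosome 9, 35421128 to 35507652, plus strand), which encodes a close relative of BOC, had counts of 822 and 715 in FGF13Aoe and 1389 and 1026 in control. The groups did not overlap, and control replicate 1 was the highest. Its log2 change was -0.64 ± 0.18 (adjusted p = 0.0398). The call ended without control replicate 1 (-0.42, adjusted p = 0.248), without control replicate 2 (-0.86, adjusted p = 0.0581) and, for a log2 change of -0.54, without FGF13Aoe replicate 2 (adjusted p = 0.0899). It also ended with median centring of the libraries (-0.57, adjusted p = 0.0596). Gas1, a lipid-anchored coreceptor (ENSMUSG00000052957, chromosome 13, 60174405 to 60177365, minus strand), had counts of 835 and 591 in FGF13Aoe and 514 and 539 in control. Its log2 change was 0.42 ± 0.19 (adjusted p = 0.136), although neither FGF13Aoe library was as low as a control library. It passed without FGF13Aoe replicate 2 (0.67, adjusted p = 0.0136). A predicted gene on the opposite strand overlaps 19.9% of the exonic bases of Gas1.

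Within each library the log2 ratio of Boc to Cdon, not divided by length, was -0.30 and -0.22 in FGF13Aoe and -1.84 and -1.66 in control. The difference between the means was 1.495 and does not depend on library scaling. Without the length, the sign of the ratio does not rank these genes by level. The exact permutation p was 0.333, the smallest this design allows, and 0.666 adjusted over the 4 ratios computed. Per kilobase, Boc made up 27.9% and 32.0% of the coreceptor sum in FGF13Aoe and 19.7% and 18.7% in control. Cdon made up 19.8% and 21.5% in FGF13Aoe and 40.9% and 34.3% in control. The sum itself was 539 and 429.8 reads per kilobase in FGF13Aoe and 440.4 and 388 in control, and overlapped.

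**Figure D3:**
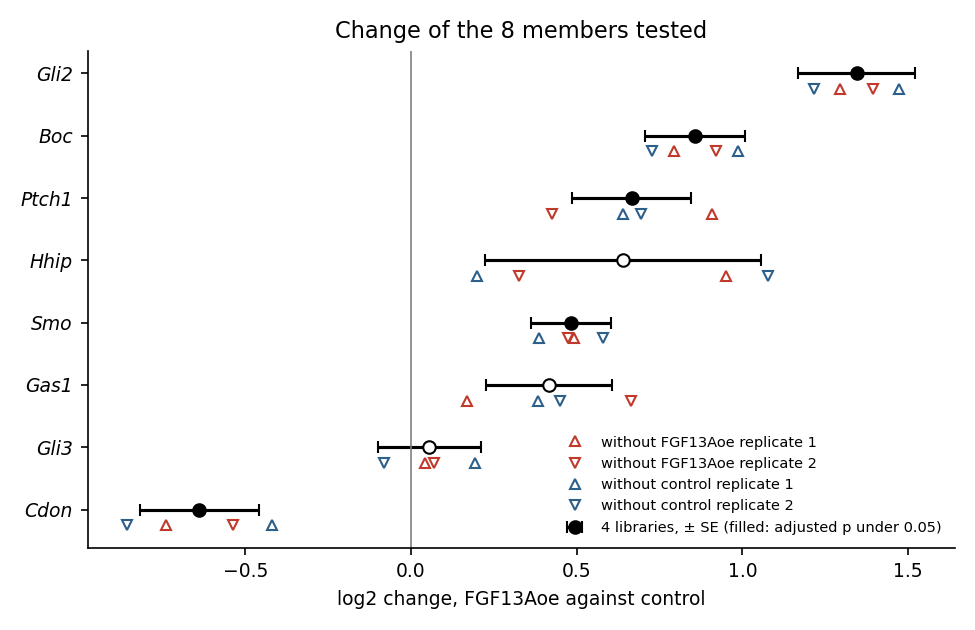
Log2 change of the 8 tested genes, FGF13Aoe against control (horizontal axis); black points are the values over 4 libraries with their SE, filled where the adjusted p was under 0.05, and triangles are the values with 1 library left out. Gli2 stays between 1.22 and 1.47, while the values of Hhip range from 0.20 to 1.08 and those of Gli3 lie on both sides of 0.

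In order of level, the FGF13Aoe cultures had Smo with 265 ± 2.0 normalized reads per kilobase, then Gas1 with 241 ± 58, Boc with 144 ± 9.1, Ptch1 with 124 ± 29 and Cdon with 99.6 ± 9.8 (SD, n = 2). Gli2 with 52.8 ± 2.6, Gli3 with 41.7 ± 0.57, Hhip with 6.97 ± 2.1 and Gli1 with 1.17 ± 0.63 followed. The control cultures had Smo with 189.6 ± 18, Gas1 with 178 ± 5.8, Cdon with 157 ± 33, Boc with 79.7 ± 10.1 and Ptch1 with 77.1 ± 2.1. There Gli3 with 40.3 ± 5.4 stood before Gli2 with 20.8 ± 2.6, Hhip with 4.54 ± 1.9 and Gli1 with 0.885 ± 0.13. In FGF13Aoe the libraries of Smo and Gas1, of Boc and Ptch1, and of Ptch1 and Cdon overlapped, as did in control those of Smo and Gas1, of Gas1 and Cdon, and of Boc and Ptch1. The other neighbours in each order did not overlap, and with the longest transcript as the length Ptch1 averaged above Boc in both groups. Smo and Gas1 exceeded 82.5% and 80.8% of tested genes in mean level per kilobase, and Hhip exceeded 7.4%.

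Genes of the ligand side of the pathway fell or did not pass. Of 15 genes of ligands, their release and their surface binding, 13 were tested. Of these 6 fell (46.2%, against 19.1% of all tested genes) and 0 rose (against 16.2%), with a median log2 change of -1.11. With either control library left out fewer of them passed, as over all genes. The median was then -1.53 without control replicate 1 and -0.69 without control replicate 2. Dhh, which encodes Desert hedgehog and was the only ligand gene with more than 10 reads in a library, had counts of 68.9 and 33.4 in FGF13Aoe and 328 and 636 in control (log2 change -3.22 ± 0.45, limma adjusted p = 0.00548). Of its exonic bases 25.2% overlap Rhebl1 on the same strand or Gm49442 on the opposite strand, so its counts are uncertain. Shh was covered by 1 and 2 reads in FGF13Aoe and by 3 and 6 in control, and Ihh by 0 and 2 reads in FGF13Aoe and by 2 and 4 in control.

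Disp2, a relative of the ligand release protein DISP1, had counts of 239 and 329 in FGF13Aoe and 1247 and 1156 in control (log2 change -2.09 ± 0.18, adjusted p = 0.00184). Disp1 itself had counts of 182 and 212 in FGF13Aoe and 197 and 214 in control (-0.06 ± 0.18, adjusted p = 0.802). Scube1, of the secreted SCUBE family, fell by 2.92 on the log2 scale, and the glypican gene Gpc4 fell by 1.63. Dhh, Disp2, Scube1 and Gpc4 passed with any 1 library left out.

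Between SMO and the GLI proteins, most regulators did not pass. Of 29 tested genes 3 rose (10.3%, against 16.2% of all tested genes) and 2 fell (6.9%, against 19.1%), with a median log2 change of -0.13. Kif7, a ciliary kinesin that controls GLI processing, had counts of 412 and 447 in FGF13Aoe and 196 and 200.1 in control (log2 change 1.11 ± 0.15, limma adjusted p = 0.00503); 20.3% of its exonic bases overlap genes on the opposite strand. Ulk3, a kinase that acts on GLI proteins, and Spop, an adaptor for their breakdown, rose by 0.95 and 0.50. Prkar1a and Prkaca, which encode a regulatory and a catalytic subunit of protein kinase A, the kinase that marks GLI proteins for processing, fell by 0.52 and 0.46. Sufu, which binds GLI proteins and holds them inactive, had counts of 604 and 729 in FGF13Aoe and 448 and 500.3 in control (0.49 ± 0.15, adjusted p = 0.0534). Without control replicate 1 none of the 29 passed by limma, with adjusted p of 0.0529 for Kif7 (1.10), 0.139 for Ulk3 (0.67), 0.209 for Spop (0.43), 0.182 for Prkar1a (-0.53) and 0.154 for Prkaca (-0.52). Without control replicate 2 Kif7 and Ulk3 passed, and adjusted p was 0.1199 for Spop (0.57), 0.193 for Prkar1a (-0.51) and 0.232 for Prkaca (-0.41). Ulk3 also missed the threshold without FGF13Aoe replicate 1 (0.94, adjusted p = 0.0522).

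Hedgehog signals pass through the primary cilium. Of 40 genes of the cilium and of intraflagellar transport, which carries cargo along it, 12 rose (30.0%, against 16.2% of all tested genes) and 5 fell (12.5%, against 19.1%), with a median log2 change of 0.22. Wdr19, of the IFT-A complex, had counts of 789 and 733 in FGF13Aoe and 288 and 314 in control (log2 change 1.33 ± 0.13, adjusted p = 0.00243). Cc2d2a, a gene of the transition zone at the base of the cilium, rose by 1.25. Wdr35, also of IFT-A, had a log2 change of -1.08 ± 0.15 (adjusted p = 0.00526). Kif3b, a motor subunit of kinesin-2, had counts of 657 and 784 in FGF13Aoe and 1848 and 1581 in control (-1.25 ± 0.15, adjusted p = 0.00367). Complexes, grouped after their values were known, were mixed. In IFT-A, Wdr19, Ift140 and Ift43 rose among 6 genes and Wdr35 fell. In IFT-B, Ift172, Ift46, Ift52 and Ift81 rose among 10 genes and Ift27 fell. Their adjusted p, other than those of Wdr19 and Wdr35, ran from 0.0886 to 0.218 without control replicate 1 and from 0.0752 to 0.243 without control replicate 2. Ift140 and Ift43 also missed the threshold without FGF13Aoe replicate 2, and Ift27 without FGF13Aoe replicate 1. In the BBSome, a complex that moves membrane proteins of the cilium, Bbs2 and Bbs9 rose among 6 genes and Bbs7 fell. Their adjusted p was 0.0534, 0.0761 and 0.167 without control replicate 1 (log2 changes 1.11, 1.01 and -0.69), and those of Bbs9 and Bbs7 were 0.0616 and 0.138 without control replicate 2 (1.07 and -0.75). Of the 3 kinesin-2 genes 2 fell, Kif3b and Kifap3. Of 2 dynein-2 genes Dync2li1 rose (0.79), with adjusted p of 0.115 without control replicate 1 (0.72) and 0.078 without control replicate 2 (0.85). Of 8 transition zone genes 1 rose, Cc2d2a. Fewer genes of the cilium list passed with either control library left out, as over all genes. Its median log2 change was then 0.24 without control replicate 1 and 0.27 without control replicate 2. Wdr19, Cc2d2a and Kif3b passed with any 1 library left out, and Wdr35 missed the threshold without control replicate 2 (-1.01, adjusted p = 0.0508). Kifap3 (-0.79) missed it without control replicate 1 (-0.59, adjusted p = 0.142).

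Genes described as Hedgehog targets, other than the members, fell in 9 cases and rose in 2. Of 24 such genes 20 were tested. Of the 20, 2 rose (against 16.2% of all tested genes) and 9 fell (45.0%, against 19.1%), with a median log2 change of -0.63. Fewer of them passed with either control library left out, as over all genes. The median was then -0.54 without control replicate 1 and -0.67 without control replicate 2. Ccnd1, the cyclin D1 gene, had counts of 581 and 415 in FGF13Aoe and 10860 and 12430 in control (log2 change -4.56 ± 0.19, limma adjusted p = 0.00111), with 23.4% of exonic bases overlapping a gene on the opposite strand. Of the 20 cell division genes 16 fell as well, and their part in this was not tested. Ccnd2 had counts of 3746 and 3515 in FGF13Aoe and 19860 and 22810 in control (-2.55 ± 0.15). Igfbp3, a binding protein of insulin-like growth factors, and Spry1, a feedback inhibitor of receptor tyrosine kinases, fell by 3.83 and 2.68. Genes on the opposite strand overlap 7.87% of the exonic bases of Ccnd2 and 24.4% of those of Spry1. These 4 genes respond to other signals as well, and passed with any 1 library left out. The summed level of the 16 oligodendrocyte lineage markers was higher in FGF13Aoe, and 11 of them rose. For 3 of them both FGF13Aoe libraries lay below both control libraries. Olig1 was such a marker, with 5731 and 10090 in FGF13Aoe and 13270 and 14480 in control (-0.87 ± 0.28, limma adjusted p = 0.0601). The part of these markers in the value of Nkx2-2 was not tested. Nkx2-2, a homeobox gene of ventral progenitors and of the oligodendrocyte lineage, had counts of 428 and 544 in FGF13Aoe and 109 and 207 in control (1.67 ± 0.33, adjusted p = 0.0138), and missed the threshold without control replicate 1 (1.21, adjusted p = 0.0513). Igfbp6 had counts of 14.5 and 13.2 in FGF13Aoe and 2.97 and 4.88 in control (1.62 ± 0.49, adjusted p = 0.0497), and missed it with any 1 library left out (adjusted p = 0.206, 0.109, 0.115 and 0.0824 without control replicates 1 and 2 and FGF13Aoe replicates 1 and 2, with log2 changes of 1.33, 1.90, 1.55 and 1.68). Mycn, a target in cerebellar progenitors, had counts of 277 and 260.1 in FGF13Aoe and 241 and 212 in control (0.25 ± 0.16, adjusted p = 0.281). Foxf1, Foxf2, Foxa2 and Nkx6-1 had too few reads to be tested.

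**Figure D4:**
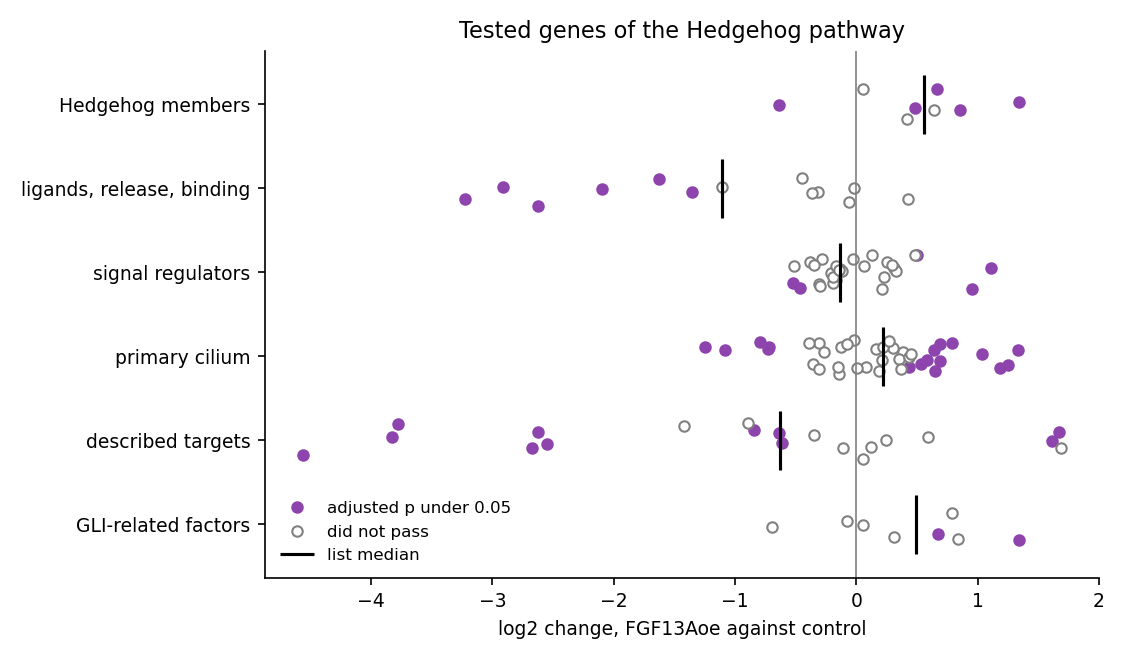
Log2 change, FGF13Aoe against control (horizontal axis), of each tested gene of the 9 Hedgehog genes and of 5 other lists of the pathway; each point is 1 gene, filled where the adjusted p was under 0.05, and the bar is the list median. The medians are 0.56 for the Hedgehog genes, -1.11 for ligands, release and binding, -0.13 for signal regulators, 0.22 for the cilium, -0.63 for described targets and 0.49 for GLI-related factors.

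Across the 4 libraries the genes whose log2 values ran closest to those of Ptch1, among 11664 tested genes with a mean of at least 50, were Dscam, Casp2, Zfp607a, Idnk and Fgfr2. Their root mean square differences from Ptch1, after centring each gene, were 0.0152, 0.023, 0.0244, 0.027 and 0.0334 log2 units. Dscam, the closest, had counts of 854 and 1198 in FGF13Aoe and 627 and 666 in control. Fgfr2, a receptor for fibroblast growth factors and the least close of those named, had 865 and 1162 in FGF13Aoe and 634 and 672 in control. With 4 libraries such likeness is a description only.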

How the data were processed

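RNA-seq values of 2 FGF13Aoe and 2 control neurosphere libraries were used. Per the labels' protocols the library kit was NEBNext Ultra, and STAR, DESeq2 and mm10 were used, per the submitters' processing notes. No source used here gives versions, gene annotation or strand use. The deposited signal is the gene read count divided by a size factor per library. The deposited table also holds the authors' mean, log2 fold change with its SE, a Wald score, and p-value with adjusted p-value.

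Dividing a library's values by its lowest nonzero value gave whole numbers, to a tolerance of 1e-06, for 100% of genes in all 4. In control replicate 1 this step, 0.991, was close to 1, and as a precaution its reads were left out of the count tests. Its values gave whole numbers as those of the other libraries did. Count tests therefore used 3 libraries, where edgeR 4.0.16 called 436 genes higher and 826 lower in FGF13Aoe and DESeq2 1.42.0 called 703 and 962. Read counts printed for genes with few reads divide by the step in all libraries.

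Genes that reached 10 normalized reads in 2 or more libraries were tested with limma 3.58.1 (R 4.3.3) on log2(normalized count + 1) with an intensity trend, two-sided, adjusted by Benjamini-Hochberg over the 15204 genes, at 0.05. Of these, 2467 were higher and 2906 lower. Log2 changes on this scale understate the change of low genes. The fit was tested on simulated data. GENCODE annotation (GRCm38, which is mm10) gave exon lengths, positions and overlaps, and the authors may have used another release. The alternatives comprised a pseudocount of 5, no filter, TMM scaling, median centring, no trend, a replicate block, the authors' deposited adjusted p-values, edgeR and DESeq2, and leaving out each library.

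Members and lists were chosen with earlier results of these data known, and all lists came from general knowledge. All members are named, with up to 4 genes of smallest p per other list and all genes of counts up to 5. The rule names Kifap3, Bbs7 and Ift27 as members of such a count, while Disp1, Sufu, Mycn and the other genes named by ciliary complex were added after their values were seen. Genes like Gli1 were not listed, since it rests on few reads. A gene counted in the lists is not reported here. Figures were drawn with matplotlib 3.10.9.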

Additional observations from a re-analysis of the deposited data

How the results depend on the processing

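With the 13 alternatives run, the tested members kept their direction, except that the log2 change of Gli3, 0.05, ranged from -0.0817 without control replicate 2 to 0.192 without control replicate 1. Gli2 passed in 13 of 13, Boc in 9, Ptch1 in 8, Smo in 7, Cdon in 6, Gas1 in 1, and Hhip and Gli3 in 0. The 4 higher and 1 lower members became 2 and 0 without an intensity trend, 1 and 0 with edgeR and with DESeq2 on 3 libraries, and 0 lower with median centring. They ranged from 1 to 5 higher and from 0 to 1 lower with 1 library left out. Over all genes the counts with 1 library left out ranged from 551 to 2822 higher and from 867 to 3447 lower, and were 436 and 826 with edgeR and 703 and 962 with DESeq2. The other pathway genes, 19 higher and 21 lower, ranged from 3 to 18 and from 10 to 24 with 1 library left out, and were 1 and 10 with edgeR and 5 and 10 with DESeq2. Fewer libraries enter those fits, and the part of this in the counts was not tested. The difference in the log2 ratio of Gli1 to Gli3, 0.21, which rests on few reads, was -0.29 without FGF13Aoe replicate 2 and -0.05 without control replicate 1, and that of Ptch1 to Smo, 0.18, was -0.051 without FGF13Aoe replicate 2. With 1 library left out these ratios ranged from -0.29 to 0.71 and from -0.051 to 0.42. The cause of these shifts was not tested.

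Same-numbered libraries of the 2 groups are not said to be paired, and their deviations correlated at -0.10 over genes. With a replicate block 3 members were higher and 1 lower, and over all genes 2049 and 2647, and Smo had an adjusted p of 0.0507. By the authors' deposited adjusted p-values the same 5 members passed, and Gli1 has none there. Levels per kilobase used exon union lengths; with the longest transcript Smo averaged 394 and 282, and Ptch1 169.6 and 105, in FGF13Aoe and control. Gli1, Shh and Ihh are limited by depth.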

Other observations

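The zinc finger genes related to the GLI family were also measured. Of 8 such genes tested, 2 rose (against 16.2% of all tested genes) and 0 fell (against 19.1%), with a median log2 change of 0.49. Glis2 had counts of 866 and 700.4 in FGF13Aoe and 435 and 547 in control (log2 change 0.67 ± 0.18, limma adjusted p = 0.0329), with 10.4% of exonic bases overlapping a gene on the opposite strand. Glis1 had counts of 27.8 and 25.3 in FGF13Aoe and 9.91 and 9.76 in control (1.34 ± 0.38, adjusted p = 0.0394). Glis1 missed the threshold with any 1 library left out, with adjusted p of 0.159 without control replicate 1 (1.35), 0.161 without control replicate 2 (1.33), 0.0929 without FGF13Aoe replicate 1 (1.28) and 0.0645 without FGF13Aoe replicate 2 (1.41). Glis2 missed it without control replicate 1 (0.51, adjusted p = 0.211), control replicate 2 (0.84, adjusted p = 0.077) and FGF13Aoe replicate 1 (0.52, adjusted p = 0.0754). Zic2, a factor of forebrain progenitors, had counts of 476 and 403 in FGF13Aoe and 311 and 192 in control (0.84 ± 0.26, adjusted p = 0.0509). Glis3 had counts of 736 and 371 in FGF13Aoe and 257 and 356 in control (0.79 ± 0.35, adjusted p = 0.127), so its FGF13Aoe libraries differed widely.

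Marker lists of cells with a small summed level were also counted. The share of all tested genes that fell was 19.1%, and whether the shares in these lists differ from it was not tested. The 12 ependymal markers summed to 696 and 562 in FGF13Aoe and 807 and 801 in control, of which Foxj1, the factor of multiciliated cells, had 573 and 435 in FGF13Aoe and 556 and 625 in control; 2 of 8 tested fell. The 12 microglia markers summed to 597 and 474 in FGF13Aoe and 862 and 517 in control, and 2 of 9 tested fell. The 12 meningeal fibroblast markers summed to 367 and 216 in FGF13Aoe and 911 and 500.3 in control, and 3 of 7 tested fell. The 12 vascular markers summed to 1723 and 1211 in FGF13Aoe and 1599 and 1902 in control, of which Cspg4 supplied 1255 and 947 in FGF13Aoe and 926 and 1165 in control. Cspg4 also stands in the oligodendrocyte lineage list, so most of this sum is not particular to vascular cells. Pdgfrb stands in both the vascular and the meningeal list. Of 7 tested vascular markers 1 fell, the pericyte gene Rgs5, which had 56.8 and 36.4 in FGF13Aoe and 327 and 382 in control (log2 change -2.93 ± 0.28, limma adjusted p = 0.0021).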
